A study of Mus musculus with 13 samples.

Results

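Fap, Lrrc15, Itga11, Cdh11 and Adam12 encode membrane proteins that are commonly read as markers of activated fibroblasts. They were taken as a named set of 5 genes out of 23211 mouse genes with counts, and all 5 were followed through 13 RNA-seq libraries. All 5 passed the filter on low counts, beside 13294 genes in total. By their labels, all 13 libraries came from lineage-negative, leptin receptor positive cells, sorted by flow cytometry from tissue next to tibia implants of mice. Fibrous tissue around implants labelled PMMA gave 7 libraries and bone around implants labelled Pressfit gave 6, and no other treatment is named. The sources used here do not give genotype, strain, sex, age, time after implantation or pooling of animals.

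Fibroblasts that are drawn into wound repair, fibrosis or tumour stroma place on their surface proteins that are scarce on resting cells. Some of these proteins cut other proteins, some hold the cell to collagen, and some hold cells to each other. TGF-beta and mechanical tension are well-known inducers of this state, and part of the same set is used by bone-forming cells. Fap is a membrane-bound serine protease that cuts after proline and is related to the dipeptidyl peptidases. Adam12 is a membrane metalloprotease with a disintegrin domain. Itga11 is an integrin alpha chain that joins the integrin beta chain of Itgb1 to make a collagen receptor. Cdh11 is a cadherin of mesenchymal cells, through which neighbouring cells adhere, and catenins tie it to the cytoskeleton. Lrrc15 is a leucine-rich repeat membrane protein known as a marker of TGF-beta-driven myofibroblasts.

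In the GENCODE M21 annotation of mm10, Fap (ENSMUSG00000000392) lies on chromosome 2 from 62500943 to 62574075, on the minus strand. Adam12 (ENSMUSG00000054555) lies on chromosome 7 from 133883199 to 134232146, also on the minus strand. Itga11 (ENSMUSG00000032243) lies on chromosome 9 from 62677826 to 62783982, on the plus strand. Cdh11 (ENSMUSG00000031673) lies on chromosome 8 from 102632095 to 102785642 and Lrrc15 (ENSMUSG00000052316) on chromosome 16 from 30269302 to 30283256, both on the minus strand. No annotated gene overlaps any of the 5 on the opposite strand. Small genes on the same strand lie inside Cdh11 and Adam12, and the only one with counts, Gm45258 inside Cdh11, had 4 counts over all libraries.

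The RefSeq promoter table (GRCm38.p6) held an entry for Itga11 and for Lrrc15. The 250 bases before each RefSeq start are shown for these members as the sequence next to which their transcription starts. Each runs 5′ to 3′ on the gene's strand. Itga11 is at chr9:62677605-62677854 on the plus strand and Lrrc15 at chr16:30283255-30283504 on the minus strand. The RefSeq starts differ from the GENCODE ones above, and both windows reach into the gene as GENCODE places it. Capitals mark matches to any of 5 short motifs, searched on both strands: TGANTCA (AP-1), GGAATG (TEAD), CAGAC (SMAD), TATAAA and CCAAT.
Itga11: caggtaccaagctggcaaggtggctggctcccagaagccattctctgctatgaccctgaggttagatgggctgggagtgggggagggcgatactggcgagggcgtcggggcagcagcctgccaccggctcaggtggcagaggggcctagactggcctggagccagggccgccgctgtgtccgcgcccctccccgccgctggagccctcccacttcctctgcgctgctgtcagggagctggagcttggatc
Lrrc15: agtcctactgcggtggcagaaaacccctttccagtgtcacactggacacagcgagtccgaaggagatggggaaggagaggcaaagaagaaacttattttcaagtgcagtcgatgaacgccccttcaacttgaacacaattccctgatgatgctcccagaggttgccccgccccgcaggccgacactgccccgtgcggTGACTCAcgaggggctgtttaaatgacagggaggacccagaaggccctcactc

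The Lrrc15 window held 1 match, an AP-1 motif whose bases lie 53 to 47 bases before the start. This motif was in 6.75% of the 32851 promoter windows of that length. Neither window held the TEAD (12.6% of windows), SMAD (42.2%), TATAAA (12.4%) or CCAAT (33.9%) letters. G and C made up 68.4% of the Itga11 window and 56.4% of the Lrrc15 window, against a median of 52.4% over all windows. A match describes letters only, and its absence says nothing of a factor's binding.

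The libraries held 16162321 to 44302166 counts, and 10 of the 13 held at least 1 count of every one of the 5 genes. Their names form an L002 series of 9 and an XY9274 series of 4, and both tissues are in each. Lepr itself, the gene of the sort marker, was under 5 normalised CPM (counts scaled to a common library total, with TMM factors) in 5 libraries, which are bone 3, bone 4, bone 5, fibrous 1 and fibrous 5. Of these, bone 3, bone 4 and fibrous 5 have Lin in their name, and had Lepr at 0.602 to 0.739 CPM against 46.7 to 804 in the 5 plus-named libraries. The titles call them leptin receptor positive too. Whether Lin in a name stands for another sort gate is not given in the sources used. Replicate numbers only name libraries. Nothing says that libraries came from separate animals, so each p-value reflects library-to-library spread, part of which may be technical.

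The 5 genes together took between 0.000631% (bone 4) and 0.0614% (fibrous 2) of a library's counts. Per kilobase of exon, their summed level was 77.6 CPM in fibrous 2 and 55.4 in fibrous 3. It was 38.3 in bone 1 and 36.7 in bone 2, and between 1.79 and 3.66 CPM per kilobase in bone 3, bone 4, bone 5 and fibrous 5. The libraries in between were bone 6, fibrous 1, fibrous 4, fibrous 6 and fibrous 7, at 10.4 to 29.7. Both tissues thus had libraries near the bottom and libraries with much higher sums, and in bulk RNA fewer cells of a type cannot be told apart from less RNA per cell.

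Per length, Fap was the most abundant of the set in 11 of 13 libraries. Its share of the summed level had a median of 55.2% in bone (45.2% to 89.3%) and 55.9% in fibrous libraries (37.2% to 73.1%). Cdh11 came next, with medians of 18.6% in bone and 25.4% in fibrous libraries, and it exceeded Fap only in fibrous 2, at 45.3% against 37.2%. Itga11 had medians of 13.4% and 9.83%, and exceeded Fap only in bone 3, at 52.9% against 45.2%. Adam12 had medians of 1.96% and 3.90%, and Lrrc15 0.792% and 2.41%. Between neighbours in this order of medians the ranges overlapped, with 1 exception in each tissue. In bone each Fap share (45.2% or more) was above each Cdh11 share (42.8% or less), and in fibrous libraries each Cdh11 share (17.3% or more) was above each Itga11 share (16.7% or less). No test was made of these shares.

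**Figure D1:**
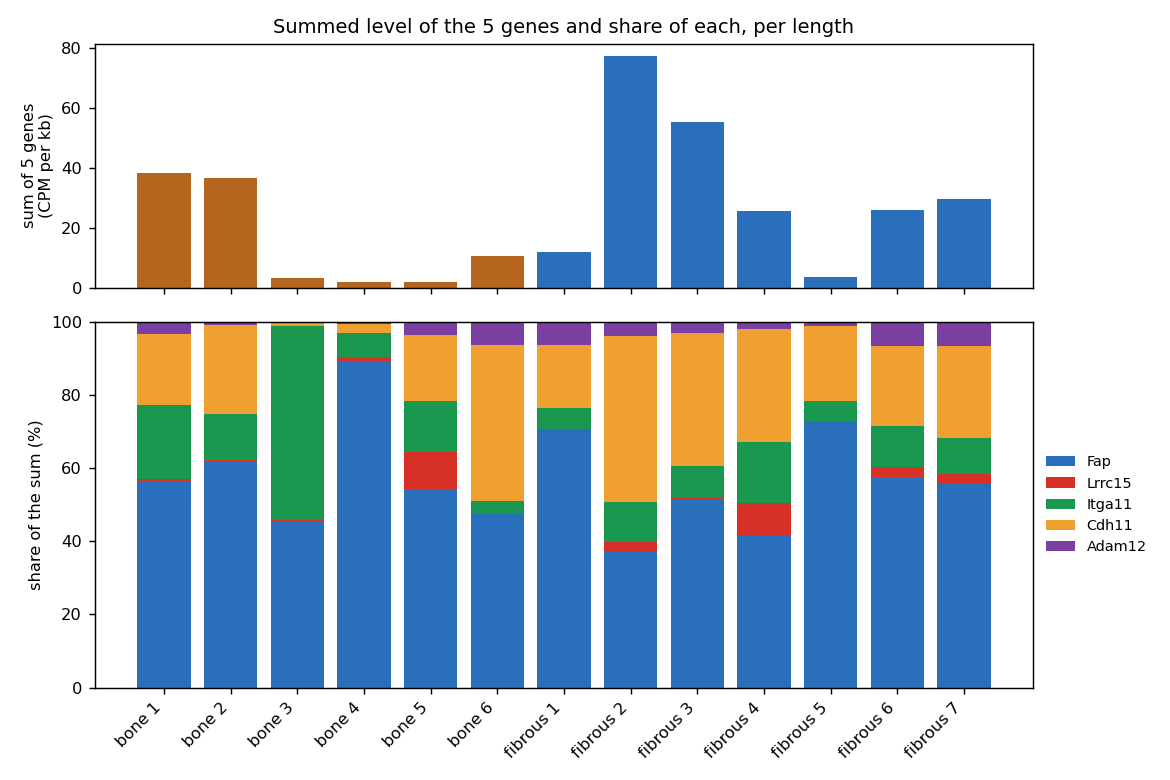
Upper panel: summed level of the 5 genes (normalised CPM per kilobase of exon) in each library, with bone in brown and fibrous in blue. Lower panel: share (%) of each gene in that sum. Fap makes up most of the sum in 9 libraries' bars, Cdh11 is the largest share in fibrous 2 (45.3%) and Itga11 in bone 3 (52.9%).

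The comparison of tissues set the sorted cells of fibrous tissue against those of bone around an implant. By label, PMMA goes with fibrous tissue and Pressfit with bone, so tissue and implant type cannot be told apart. All 5 genes had higher fitted values in fibrous libraries, with log2 fold changes from 0.89 for Itga11 to 3.11 for Lrrc15. None of the 5 passed the test (edgeR's quasi-likelihood test with name series as a term, Benjamini-Hochberg adjusted p = 0.873 to 0.916). The groups overlapped for each gene. Over all genes, 0% were called at an adjusted p under 0.05, and 4.78% had an unadjusted p under 0.05, as did 0 of the 5. Values above 0 were found for 51.9% of all genes and for 5 of 5 members, and values above 1 for 11.9% and for 3 of 5. The median over the 5 was 1.61, beside 0.026 over all tested genes. DESeq2 called 1.30% of the genes it gave an adjusted p, and 0 of the 5. Limma-voom, run with a quality weight for each library, also called 0 of the 5 and gave larger log2 fold changes. They were 1.77 for Fap, 1.85 for Itga11, 3.22 for Cdh11, 3.65 for Adam12 and 4.04 for Lrrc15 (limma adjusted p = 0.559 to 0.609; unadjusted p = 0.0208 for Adam12 and 0.0547 to 0.167 for the others).

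Among the proteases, Fap ranged from 5.70 to 129 CPM over the bone libraries with a median of 18.5. In fibrous libraries it ranged from 15.1 to 163 CPM with a median of 84.8. Only 2 fibrous libraries lay above the highest bone library, and 6 of 7 lay above the bone median. Fibrous libraries had a mean of 89.6 ± 56.0 CPM (SD, n = 7), against 50.4 ± 58.7 CPM (SD, n = 6) for bone. The log2 fold change was 1.00 (SE 0.80; edgeR adjusted p = 0.877). Within bone, bone 1 and bone 2 stood at 122 and 129 CPM, and the other 4 libraries between 5.70 and 28.1.

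Adam12 had 0 to 13.2 CPM in bone libraries, with a median of 1.66, and 0.431 to 32.0 CPM in fibrous libraries, with a median of 16.8. Here 4 fibrous libraries lay above the highest bone library, fibrous 2, 3, 6 and 7, at 16.8 to 32.0 CPM. Bone 3 had no Adam12 count, which at 3 counts allows up to 0.193 CPM, and bone 4 had 1 count. The means were 14.5 ± 10.7 and 3.90 ± 5.21 CPM, and the log2 fold change was 1.87 (SE 1.22; edgeR adjusted p = 0.873).

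Of the adhesion receptors, Itga11 ranged from 0.602 to 40.01 CPM in bone (median 5.44) and from 0.985 to 43.2 CPM in fibrous libraries (median 14.98). Only fibrous 2 lay above the highest bone library, bone 1. The means were 17.7 ± 14.2 and 12.8 ± 15.95 CPM. The log2 fold change was 0.89 (SE 1.02; edgeR adjusted p = 0.916), the smallest of the set with all libraries. Fap was smaller than Itga11 with limma-voom (1.77 and 1.85) and without the Lin-named libraries (0.82 and 0.88). The same held without the Lepr-low libraries (0.58 and 0.75), bone 1 (1.38 and 1.53) or fibrous 3 (0.83 and 0.91). Without fibrous 1 (1.167 and 1.173) or bone 3 (0.7797 and 0.7798) Fap and Itga11 were nearly equal. With scores of erythroid and pan-leukocyte genes as terms, Cdh11 was the smallest at 0.26, below Fap (0.28) and Itga11 (0.38). In XY9274 alone Itga11 was the largest.

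Cdh11 had the widest span of the set in CPM. It ran from 0.322 to 80.5 CPM in bone libraries, with a median of 21.3, and from 6.71 to 313 CPM in fibrous libraries, with a median of 67.1. Fibrous 2 and fibrous 3, at 313 and 180.3 CPM, were above every bone library, and the other 5 overlapped with bone. The means were 101 ± 109 and 31.6 ± 35.8 CPM, with a log2 fold change of 1.61 (SE 1.18; edgeR adjusted p = 0.873).

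Lrrc15 was the scarcest gene and had the largest fold change. It was at 3 counts or fewer in 6 libraries, 4 of bone and 2 of fibrous tissue. Bone libraries ranged from 0 to 1.73 CPM with a median of 0.127, and fibrous libraries from 0 to 12.2 CPM with a median of 3.76. Fibrous 2, 4, 6 and 7, at 11.3, 12.2, 3.76 and 3.80 CPM, were above every bone library. Fibrous 3 was at 1.10 CPM, below bone 1 at 1.73, although its Fap level of 162 CPM was next to the highest. Its means were 4.60 ± 5.14 and 0.516 ± 0.703 CPM, and the log2 fold change was 3.11 (SE 1.56; edgeR unadjusted p = 0.0684, adjusted p = 0.873). With 1 count in fibrous 1 and none in fibrous 5, Lrrc15 was not detectable above 3 counts there, which stand for 0.117 and 0.185 CPM.

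**Figure D2:**
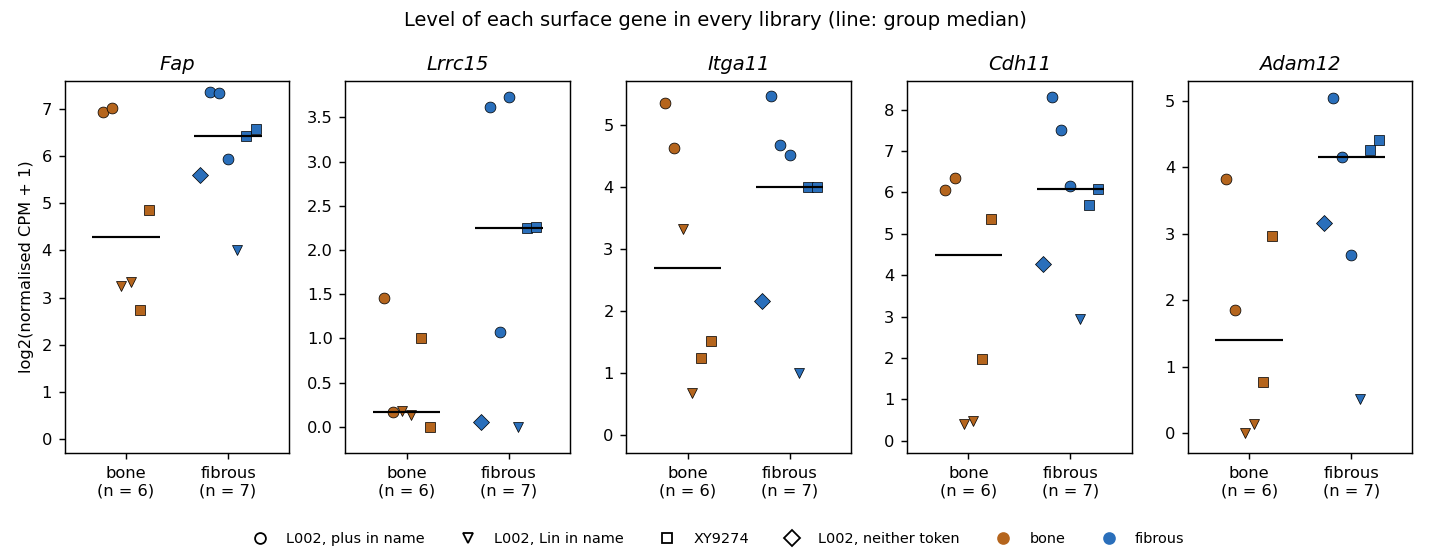
Level of each gene, log2(normalised CPM + 1), in every bone (brown, n = 6) and fibrous (blue, n = 7) library; marker shapes give the name series and token, and lines give group medians. The fibrous median is the higher one for each gene, and points of both groups overlap in every panel.

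The name series did not give the same picture for every gene. For Itga11 the log2 fold change was 0.0023 (SE 1.14) within L002 and 3.15 (SE 0.61) within XY9274, and for Fap 0.40 (SE 0.94) and 2.35 (SE 0.85). In XY9274 the fibrous libraries had Itga11 at 14.9 and 14.98 CPM and bone libraries 1.35 and 1.87, while Fap was at 84.8 and 94.1 against 5.70 and 28.1 CPM. Adam12 had 1.62 and 2.31, Cdh11 1.66 and 1.41, and Lrrc15 3.15 and 2.80 in L002 and XY9274. The XY9274 fit rests on 2 libraries of each tissue and called 0 of the 5 (edgeR unadjusted p = 0.00592 for Itga11 and 0.0494 for Fap). Bone 5, in that series, was low in Lepr (2.42 CPM) and had the most leukocyte transcripts (10018 CPM over 10 genes). The test of the difference between series (interaction term, edgeR) passed for 0 of the 5 and 0% of all genes. Its unadjusted p was 0.133 for Itga11 and 0.252 for Fap, each with an adjusted p of 1.00. Between the series themselves, 2.16% of genes were called and 0 of the 5 (edgeR adjusted p = 0.461 to 0.947).

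Transcripts of blood cells, which a lineage-negative sort is meant to leave out, differed between libraries. The summed level of the 10 pan-leukocyte genes had a median of 1970.1 CPM in bone (330.5 to 10018) and 778 CPM in fibrous libraries (262 to 2865). For 9 erythroid genes the range was 2355 to 595980 CPM in bone and 9954 to 237580 CPM in fibrous libraries. Since CPM use TMM-scaled totals, with a factor of 0.617 for bone 4, such sums are not shares of a library's counts. All 10 pan-leukocyte and all 10 neutrophil genes had values below 0 in the fibrous against bone fit (medians -1.54 and -1.80), and 0 were called by edgeR. With the scores of both lists as terms, a setting added after seeing the data, the log2 fold change was 0.28 for Fap, 0.26 for Cdh11, 0.38 for Itga11, 0.91 for Adam12 and 3.74 for Lrrc15. These terms gave lower values than the fit without them for Fap, Cdh11, Itga11 and Adam12 and a higher one for Lrrc15 (unadjusted p = 0.0368, edgeR adjusted p = 0.999). Without the 5 libraries low in Lepr, also added after seeing the data, the values were 0.58 (SE 0.46) for Fap, 1.10 (SE 0.48) for Cdh11 and 0.75 (SE 0.69) for Itga11. Adam12 then had 1.32 (SE 0.75) and Lrrc15 4.12 (SE 1.77), and none of the 5 was called (edgeR adjusted p = 0.774 to 0.924).

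**Figure D3:**
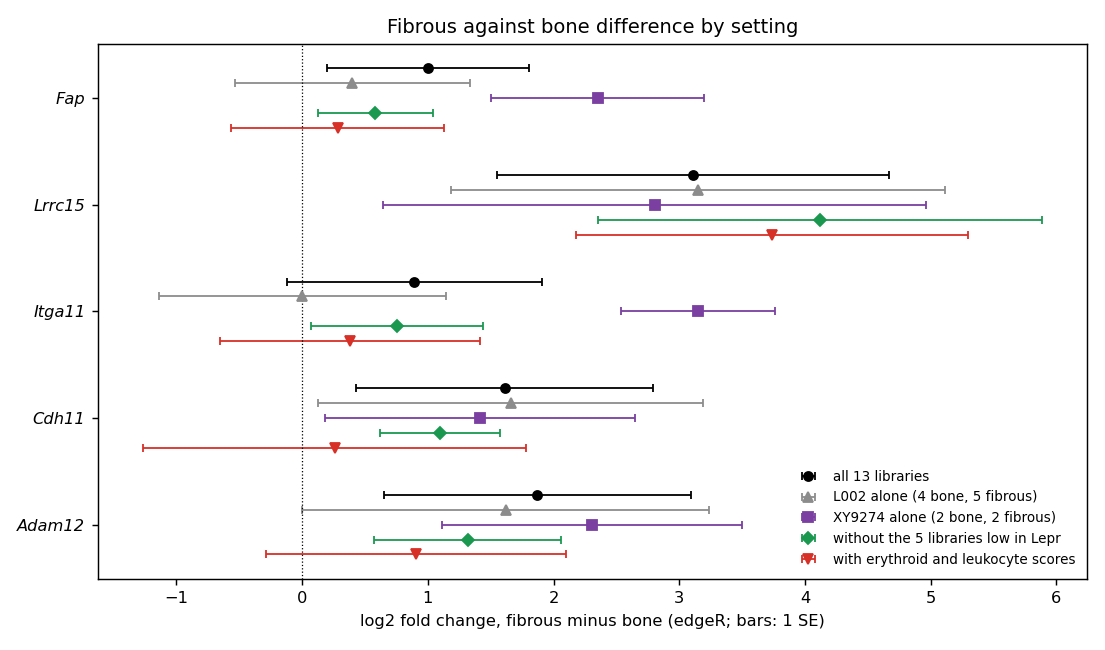
Log2 fold change of fibrous over bone libraries for each gene (edgeR; bars are 1 SE) with all 13 libraries, within each name series, after removal of the 5 Lepr-low libraries, and with erythroid and leukocyte scores as terms. Lrrc15 stays between 2.80 and 4.12, and Itga11 runs from 0.0023 in L002 to 3.15 in XY9274.

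The relatives and partners of the 5 genes gave no calls by edgeR. Of 6 tested relatives of Fap among the prolyl peptidases, 0 passed in either direction and 5 had values above 0, with a median of 0.22. Dpp4, a dipeptidyl peptidase close to Fap in sequence, had a fibrous mean of 6.96 ± 9.53 CPM beside 10.5 ± 13.6 CPM for bone. Its log2 value was -1.50 (SE 1.52), the sign opposite to that of Fap. Of 7 other ADAM genes 0 passed, with a median of 0.22, and Adam17, the sheddase of TNF, had 0.93 (SE 0.48). Of 7 tested collagen receptor genes 0 passed, 6 had values above 0, and the median was 1.09. Itgb1, the beta chain that partners Itga11, had means of 290.04 ± 77.1 CPM for fibrous and 201 ± 118 CPM for bone, with a log2 value of 0.60 (SE 0.35). Of 7 other cadherins and catenins 0 passed and 7 had values above 0, with a median of 0.48 and with Ctnna1, the alpha catenin, at 0.46 (SE 0.39).

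Genes that activated fibroblasts are known to make also gave no call. In the list of effectors 14 of 16 tested genes had values above 0 (median 1.16). Acta2, smooth muscle actin, had a fibrous mean of 25.6 ± 21.9 CPM and a bone mean of 7.68 ± 10.3 (log2 value 1.65, SE 0.87). Cthrc1, a secreted protein of matrix-making cells, had 145 ± 98.4 and 81.0 ± 91.8 CPM (1.12, SE 0.59). Among other fibroblast surface genes 11 of 13 had values above 0 (median 0.68), with Pdgfra, a PDGF receptor, at 19.5 ± 19.2 against 4.37 ± 4.56 CPM (2.26, SE 1.38). In the TGF-beta list 17 of 20 were above 0 (median 1.00), and Tgfbr2, the type II receptor, had 1.04 (SE 0.60). By DESeq2, 1 gene was called in each of 2 of these 7 lists. Mrc2, an endocytic collagen receptor, had means of 33.4 ± 21.0 CPM for fibrous and 2.85 ± 4.64 CPM for bone (DESeq2 adjusted p = 4.51e-09). Cd34, a sialomucin, had a fitted value of 6.16 (SE 3.12) with edgeR although its bone mean of 10.96 ± 26.8 CPM was above its fibrous mean of 7.82 ± 5.14 (DESeq2 adjusted p = 0.00303).

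The lists of stromal and other cell types gave no call by edgeR either. Marrow stromal genes had values above 0 for 10 of 10 (median 2.27), osteoblast genes for 10 of 10 (0.88) and chondrocyte genes for 9 of 10 (0.28). Macrophage genes had values below 0 for 8 of 9 (median -0.83), erythroid genes for 7 of 9 (-1.09) and endothelial genes for 2 of 2 (-1.72). Osteoclast genes had values above 0 for 3 of 5 (0.12), and the 1 tested muscle gene was at -0.49. DESeq2 called Phex of the osteoblast list (adjusted p = 0.00508) and Angpt1 and Ebf3 of the marrow stromal list (0.000649 and 0.0398) as higher in fibrous libraries, and 0 genes of the other cell type lists. The part of these lists in the values of the 5 surface genes was not tested.

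Across the 13 libraries each of the 5 genes tended to be higher where Lepr was higher. As a description, Spearman's rho with Lepr was 0.879 for Cdh11, 0.736 for Fap, 0.720 for Itga11, 0.571 for Adam12 and 0.564 for Lrrc15 (Pearson's r 0.909, 0.820, 0.763, 0.763 and 0.645). Within the 8 libraries with Lepr at 5 CPM or more, rho was 0.762 for Cdh11 and 0.0476 to 0.452 for the other 4 genes. Among the 8 libraries with Lepr at 5 CPM or more, Fap stood between 28.1 and 163 CPM and Cdh11 between 39.7 and 313, and among the 5 low libraries between 5.70 and 47.6 and between 0.322 and 18.3. Among the low ones, fibrous 1 was the highest for Fap, Cdh11 and Adam12. For Itga11 the highest was bone 3 (9.02 CPM) and for Lrrc15 bone 5 (1.01 CPM). Fibrous 1 held 12 counts of Lepr (0.469 CPM) but 1218 of Fap (47.6 CPM, exact 95% Poisson interval 44.9 to 50.3) and 203 of Adam12 (7.93 CPM, 6.87 to 9.10). Its Cxcl12, a chemokine of marrow stroma, was at 32.7 CPM, against at least 376 in every library with Lepr at 5 CPM or more. Fap counts per Lepr count were 101.5 in fibrous 1 and 0.203 in fibrous 2, the lowest. In fibrous 1 Adam12 was above its level in bone 2, bone 6 and fibrous 4, which had Lepr at 102 to 197 CPM. Such Poisson intervals cover counting error only.

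**Figure D4:**
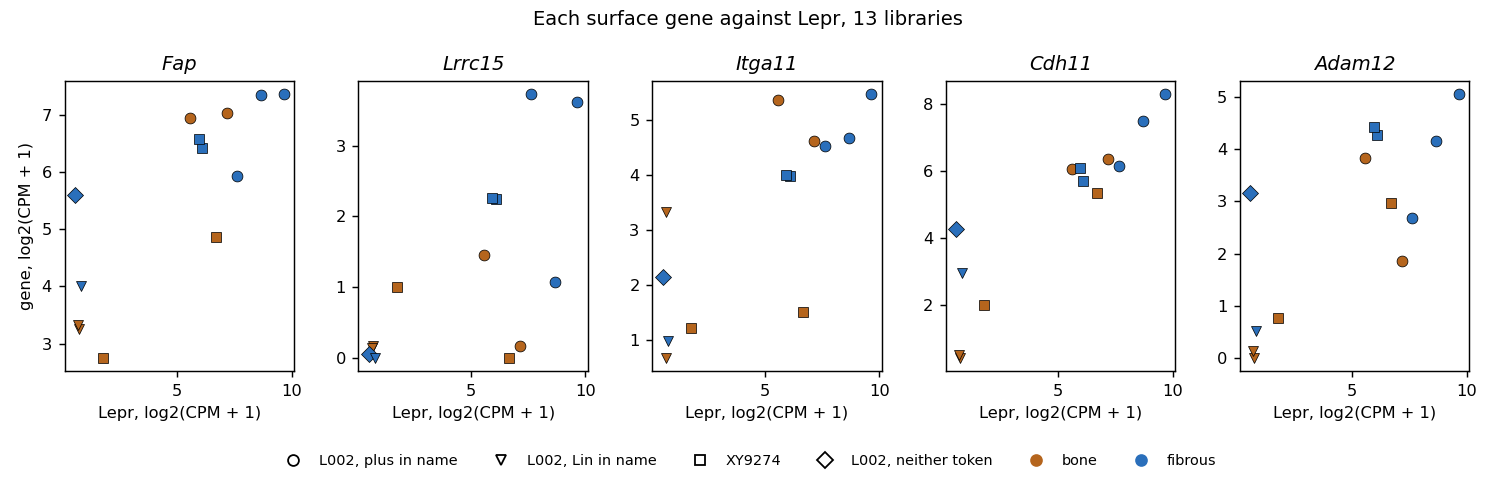
Each gene against Lepr, both as log2(normalised CPM + 1), in 13 libraries; colours give tissue and shapes the name series and token. Fibrous 1 (blue diamond) has Lepr at 0.469 CPM beside Fap at 47.6 and Adam12 at 7.93 CPM.

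The likeness of the 5 genes across libraries depended on the measure and on which libraries were taken. As a description, Spearman's rho over 13 libraries was 0.940 for Fap and Cdh11 (Pearson's r of log2 values 0.939) and 0.885 for Fap and Itga11 (r = 0.843). It was 0.852 for Itga11 and Cdh11 (r = 0.757), 0.780 for Fap and Adam12 (r = 0.867) and 0.742 for Cdh11 and Adam12 (r = 0.891). Itga11 and Adam12 had 0.665 (r = 0.685), and the 4 pairs with Lrrc15 had 0.509 to 0.688 (r = 0.511 to 0.645). Within the 8 libraries with Lepr at 5 CPM or more rho was 0.833 for Fap and Cdh11, 0.857 for Fap and Itga11 and 0.762 for Cdh11 and Itga11. Pairs with Adam12 or Lrrc15 lay between 0.0714 and 0.429 within those 8. All these values rest on the same libraries and the same scaling.

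By Spearman's rho on log2(CPM + 1) over the 13 libraries, among 9942 or 9943 genes with at least 5 CPM in the higher group, the genes most like Fap were Bglap, which encodes osteocalcin (rho 0.973), Fxyd1 (0.973), the proteoglycan gene Bgn (0.962), B3gnt9 (0.956) and Fcgrt (0.956). Cdh11 was at place 18 for Fap. Most like Cdh11 were Loxl1, a lysyl oxidase (0.989), Tmem176a (0.973), Tmem176b (0.973), Apod (0.971) and Il17rc (0.967). For Itga11 they were the fibulin gene Efemp2 (0.978), Smoc1 (0.973), Rhod (0.967) and Vasn (0.967). Adam12 was most like Lamb2, a laminin chain (0.956), Col22a1 (0.934), Ptk7 (0.934), Luzp1 (0.929) and Bcar1 (0.923). Lrrc15 had the weakest matches, Ephb3 and Irf2bpl (0.905 each), Kifap3 (0.853), Frmd6 (0.845) and Vps4a (0.828), and the nearest of the set, Itga11, was at place 236. The Pearson values ran from 0.617 to 0.968 over the matches named.

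The second division in the names sets 3 libraries with Lin against 5 with plus within the L002 series. Since the meaning of these names is not given, this compares libraries by name, and a difference in sort gate cannot be told apart from one within the same cells. All 5 genes had lower values in the Lin-named libraries, and Fap, Cdh11 and Adam12 were called. Fap was at 8.51, 9.03 and 15.1 CPM in the Lin-named bone 3, bone 4 and fibrous 5, against 60.2 to 163 CPM in the plus-named libraries. Its log2 fold change of Lin over plus was -3.53 (SE 0.42; edgeR adjusted p = 0.0134). Cdh11 was at 0.322, 0.401 and 6.71 CPM against 66.0 to 313 CPM (-6.01, SE 0.84; edgeR adjusted p = 0.0161). Adam12 had 0, 1 and 7 counts in the Lin-named libraries and was at 2.61 to 32.0 CPM in the others (-6.25, SE 1.36; edgeR adjusted p = 0.0369). For these 3 genes, and for Itga11, the Lin-named and plus-named libraries did not overlap. How many of all tested genes also did not overlap was not counted.

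Itga11 was not called (-3.54, SE 1.04; edgeR adjusted p = 0.0787). In the Lin-named libraries it was at 9.02, 0.602 and 0.985 CPM, and in the plus-named ones at 21.9 to 43.2. Lrrc15 was not called either (-4.60, SE 2.14; edgeR adjusted p = 0.208), and its groups overlapped, since bone 2 held 3 counts. Over all genes edgeR called 8.16%, and 5.00% as lower in the Lin-named libraries, where the median of all tested genes was -0.21. DESeq2 called all 5 as lower, beside 16.9% of genes, and limma-voom called 0 of the 5 (629 genes in all). Leaving out 1 library ended the call of Adam12 without bone 1, 2, 3 or 4 or fibrous 2, 3 or 5 (edgeR adjusted p = 0.0576, 0.0508, 0.0864, 0.111, 0.0892, 0.0795 and 0.0639). It ended that of Cdh11 without bone 3 or bone 4 (0.0564 and 0.0580) and brought Itga11 under the threshold without bone 3 (0.0473). Fap stayed called each time, with an edgeR adjusted p from 0.00387 without fibrous 4 to 0.04915 without bone 3.

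In 2 pairs the libraries share a name token, with no label saying that a pair is 1 animal. Fap, Itga11 and Cdh11 were lower in the Lin-named library of each pair. From bone 2 to bone 4 Fap went from 129 to 9.03 CPM, Itga11 from 23.7 to 0.602 and Cdh11 from 80.5 to 0.401. From fibrous 2 to fibrous 5 Fap went from 163 to 15.1 CPM, Itga11 from 43.2 to 0.985, Cdh11 from 313 to 6.71 and Adam12 from 32.0 to 0.431. The step was smaller for Fap, at 14.3-fold and 10.8-fold, than for Cdh11, at 201-fold and 46.7-fold. Cdh11 in bone 4 rested on 4 counts, with an exact 95% Poisson interval of 0.109 to 1.03 CPM, so its 201-fold step is imprecise. Bone 2 and bone 4 held 63 and 1 counts of Adam12 and 3 and 1 of Lrrc15, too few for a ratio. The difference between these steps was not tested.

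**Figure D5:**
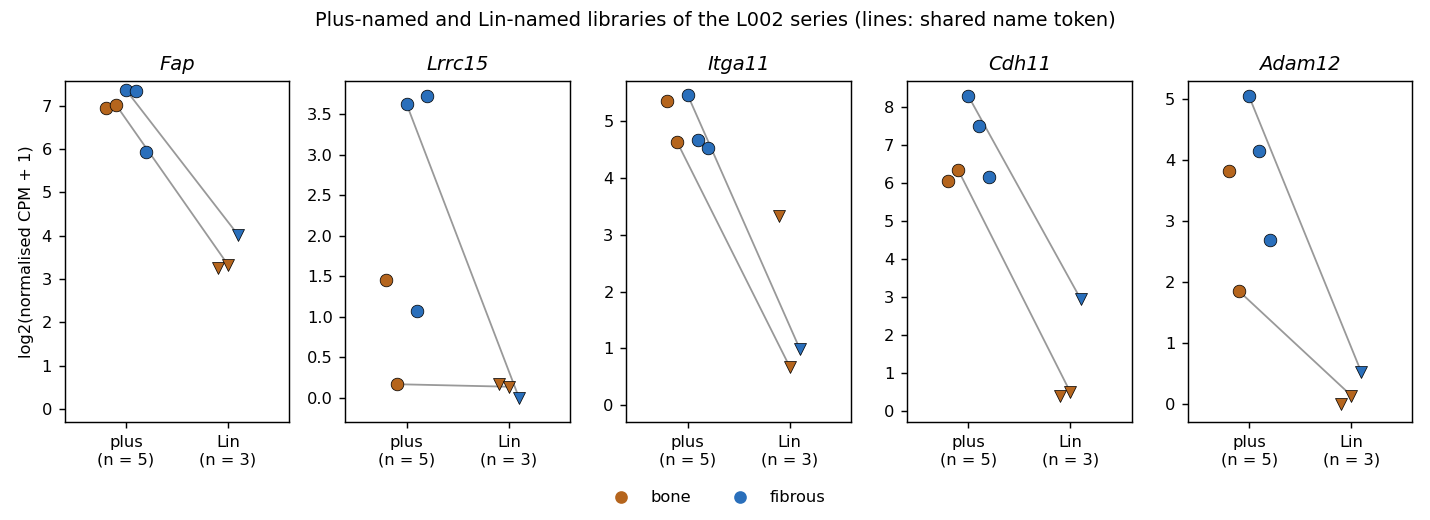
Level of each gene, log2(normalised CPM + 1), in the plus-named (n = 5) and Lin-named (n = 3) libraries of the L002 series; colours give tissue and lines join libraries that share a name token. For Fap the Lin-named libraries lie at 8.51 to 15.1 CPM and the plus-named at 60.2 to 163.

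Several of the pathway lists held called genes in this comparison. Over all 13450 tested genes, edgeR called 424 as higher and 673 as lower in Lin-named libraries. Of the effectors, 10 of 17 tested genes were lower in Lin-named libraries by edgeR and 0 higher, and the list's median was -4.04. Of the other surface genes 5 of 12 were lower (median -3.55), of the TGF-beta list 4 of 20 (-2.87), of the cadherins and catenins 3 of 7 (-3.48) and of the collagen receptors 3 of 8 (-2.27), with 0 higher in each. Of the relatives of Fap and of Adam12, 0 of 6 and 0 of 6 passed in either direction, with medians of -0.50 and -0.49. At the same time 6 of 9 erythroid genes were higher in Lin-named libraries and 0 lower. Their summed level, on TMM-scaled totals, was 237580 to 595980 CPM there and 28893 to 78150 CPM in plus-named libraries. The part of this level in the values of the 5 genes was not tested. Of the marrow stromal list 5 of 10 genes were lower, of the osteoblast list 6 of 10 and of the chondrocyte list 8 of 10, with 0 higher in each. In the neutrophil, pan-leukocyte, macrophage, osteoclast, endothelial and muscle lists 0 genes were called.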

How the data were processed

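RNA was counted in 13 libraries. The authors deposited raw counts per Ensembl gene ID in 1 matrix for the series, and all 23211 IDs matched a GENCODE M21 symbol. Per the submitters' processing notes, edgeR was used, with no version named, and mm10 and hg38 are listed as builds with no role. The sources used here name no aligner, counting tool, annotation or strand setting. The authors' counts were tested with edgeR 4.0.16 in R 4.3.3 (TMM, filterByExpr, robust quasi-likelihood F test, Benjamini-Hochberg threshold 0.05). The terms were name series and tissue for fibrous against bone (13294 genes), and tissue and name token for Lin-named against plus-named libraries (13450 genes). Standard errors (SE) were taken as the absolute log2 value over the root of F. The code was tested on simulated data. Alternatives were DESeq2 1.42.0, limma 3.58.1 (voom with library quality weights), other scaling, filters, terms and subsets of libraries, with 3 of them added after seeing the data. Normalised CPM use TMM-scaled totals, and levels per length use the union of annotated exons. Genes besides the 5 were named by a rule: up to 3 of each of 7 pathway and 10 cell type lists by smallest p, a few defining markers, and 5 genes of like pattern for each, of which 1 is not reported here. The members and lists were chosen with earlier results of these data known.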

Additional observations from a re-analysis of the deposited data

How the results depend on the processing

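For fibrous against bone, edgeR called 0 genes in each setting run with it (636 had an unadjusted p under 0.05 with all libraries), limma-voom called 0 (1176 at an unadjusted p under 0.05) and DESeq2 called 169. The 5 members kept a positive sign and no call in each of the 25 alternatives. Leaving out 1 library moved log2 fold changes to between 0.67 and 1.43 for Fap, 0.52 and 1.53 for Itga11, 1.09 and 2.12 for Cdh11, 1.41 and 3.25 for Adam12, and 2.66 and 4.40 for Lrrc15, with the highest Itga11, Adam12 and Lrrc15 values without bone 1. For Lin-named against plus-named libraries, 1097 genes and 3 members were called. DESeq2 called 3493 genes and 5 members, and limma-voom 629 genes and 0 members. With 1 library left out, 138 to 992 genes and 1 to 3 members were called, the fewest genes without fibrous 3 and the fewest members without bone 4. The cause of these differences between tools was not tested. With the shared name token as replicate block, added after seeing the data, the 4 libraries concerned gave 15 called genes and 0 of 4 tested members. Fap was at -3.65 (edgeR adjusted p = 0.0650), Cdh11 at -6.29 (0.0723), Itga11 at -5.39 (0.121) and Adam12 at -5.59 (0.216), and this fit has fewer libraries. No paired analysis was possible for fibrous against bone because the replicate numbers follow accession order. Lrrc15 was at 3 counts or fewer in 6 libraries, and its levels there are not resolved.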

Other observations

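Within a library, ratios of counts do not depend on scaling. Cdh11 counts per Fap count lay between 0.384 and 1.92 in 11 libraries, and at 0.0379 and 0.0444 in the Lin-named bone 3 and bone 4, which held 5 and 4 counts of Cdh11. Bone 3 held 140 counts of Itga11 beside 132 of Fap, 1.06 Itga11 counts per Fap count, where the other libraries had 0.0650 to 0.364. Its Itga11 was at 9.02 CPM (exact 95% Poisson interval 7.59 to 10.6) with no count of Adam12. Lrrc15 counts per Fap count were 0.203 in fibrous 4 and 0.177 in bone 5, and at most 0.0692 in the other libraries. Bone 5, the library with the most leukocyte transcripts (10018 CPM over 10 genes), held 47 counts of Lrrc15 beside 266 of Fap.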
